A study of Mus musculus with 39 samples.

Results

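Livers that had lost the transcription factor E47 in hepatocytes were compared with livers of floxed littermates 1 h after 1 injection of dexamethasone (Dex), a synthetic glucocorticoid. The 6 libraries were chosen by their titles from the 39 of the series, 3 labelled as mutant and 3 as control, and every expressed gene was compared between the genotypes. The mutants (E47LKO) were Albcre/+;E47fl/fl. The controls carried no Cre, and control 1 was Alb+/+;E47fl/+ whereas controls 2 and 3 were Alb+/+;E47fl/fl. All mice were males of C57BL/6 background, 10 to 16 weeks old, fed chow, and all received 1 mg/kg Dex intraperitoneally. The experiment asked which liver transcripts depend on hepatocyte E47 early in the response to the hormone. Cre was driven by the albumin promoter, which is active in hepatocytes, so the other cells of these livers kept the gene. A group with Cre and an intact E47 gene, and floxed livers without Dex, were not analysed here.

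E47 is a basic helix-loop-helix protein of the E protein class, made with E12 by alternative splicing of *Tcf3*. E proteins bind E-boxes (CANNTG) as dimers, and the Id proteins, which lack the DNA-binding region, keep them from binding. Dex activates the glucocorticoid receptor (GR, *Nr3c1*), a nuclear receptor that binds inverted repeats of a motif close to AGAACA and that in liver controls genes of glucose production, amino acid breakdown and lipid handling. E47 is best known from lymphocytes, where it is needed to form B cells.

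The libraries held 15.8 to 18.4 mega-counts in genes. Levels are given as counts-per-million (CPM, assigned counts scaled to library size), and differences as log2 fold changes of E47LKO against control with their standard error (SE). All 12 hepatocyte markers were detected, and albumin (*Alb*) ranged from 72111 to 106889 CPM. The mice of a group were not alike. Control 1 lay more than 2-fold below the other 5 libraries in 24 genes of mean CPM at least 5, among them the matrix and muscle genes *Thbs1*, *Acta2*, *Col1a1* and *Fbln2*, and above them in 5. Control 3 lay above the others in 6 genes and below in 1. E47LKO 3 lay above the others in 14 and below in 26. Control 2 and E47LKO 2 stood apart in 0 genes each and E47LKO 1 in 2. Counts of list members below were therefore repeated without control 1, without control 3 and without E47LKO 3.

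The targeted gene *Tcf3* (ENSMUSG00000020167, GRCm38 chromosome 10, 80409514 to 80433647) measured 5.60, 6.69 and 5.69 CPM in controls 1 to 3 and 6.47, 6.32 and 6.32 CPM in E47LKO 1 to 3. The groups overlapped, with a log2 fold change of 0.09 (SE 0.14). Counts of the whole gene add E12, E47 and the RNA of cells without Cre, and give no check of the deletion, so the genotypes are those of the labels. None of the 6 tested genes among the E proteins and their Id inhibitors passed a threshold, and their median log2 fold change was 0.05. Per kilobase of exon, *Id2* had the highest level of them (6.89 CPM per kb) and the E protein gene *Tcf4* the lowest (0.487 CPM per kb), with *Tcf3* at 1.53 CPM per kb.

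No gene differed between the genotypes after adjustment for all 12540 genes tested (edgeR quasi-likelihood test with Benjamini-Hochberg adjustment, 0% of genes, smallest adjusted p 0.717). Before adjustment, 458 genes (3.65%) had a p under 0.05, fewer than the 627 that a uniform distribution of p would give. A fold change of at least 1.3 together with that p, used below as a descriptive threshold, was reached by 139 higher (1.11%) and 141 lower genes (1.12%), 280 in all (2.23%). That share was 4.27% when control 3 was left out and 3.50% when E47LKO 2 was left out. The 3 mutant libraries lay all above the 3 controls in 542 genes (4.32%) and all below in 518 (4.13%), together 1060 (8.45%). Log2 fold changes were centred on 0.00, and 5% of genes lay below -0.35 and 5% above 0.43, with a median SE of 0.149. Values of genes past the descriptive threshold are therefore given as measured differences between 6 mice, none of which passed the adjusted edgeR test. As alternatives, DESeq2 called 3 genes after adjustment (*Zfp791*, *Prlr* and *Serpina3c*), and edgeR without the filter on low counts called 1 (*Zfp791*).

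**Figure D1:**
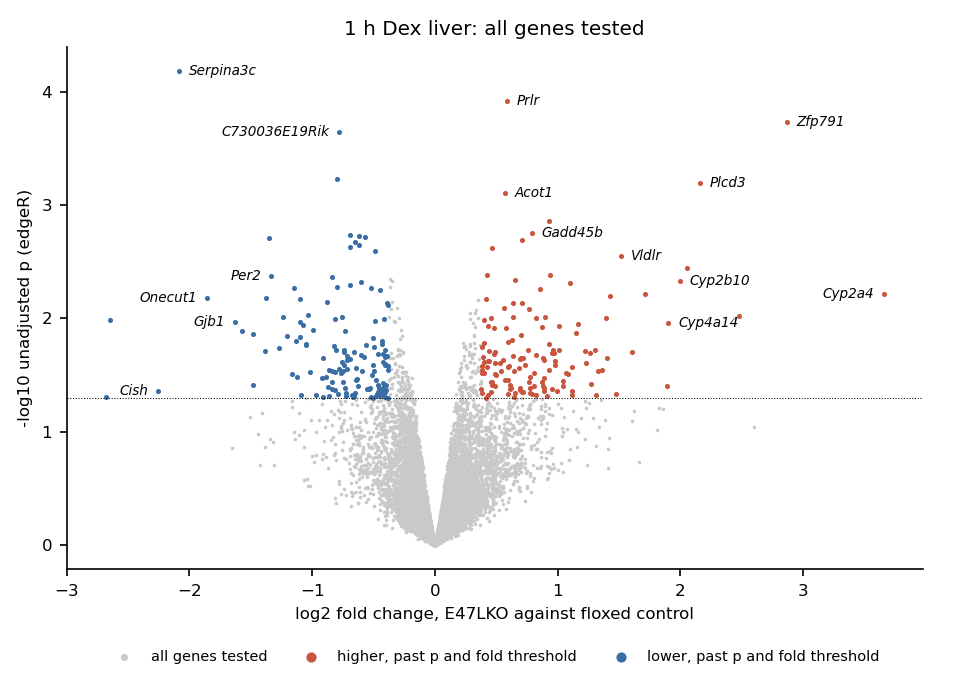
Log2 fold change of E47LKO against floxed control (x axis) and -log10 of edgeR's unadjusted p (y axis) for the 12540 genes tested, 1 point per gene. Red (139) and blue (141) points passed the unadjusted p of 0.05, drawn as a dotted line, and the fold of 1.3. *Serpina3c*, *Prlr* and *Zfp791* lie highest, and 0 genes passed after adjustment.

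The 14 higher genes with the smallest p among those of mean CPM at least 1 whose groups did not overlap were led by *Prlr*, the prolactin receptor (chromosome 15, 10177238 to 10349180). Its level was 78.8, 68.3 and 76.1 CPM in controls 1 to 3 and 110, 107 and 118 CPM in E47LKO 1 to 3. All mutants lay above all controls, and the spread within each group was small, with a log2 fold change of 0.59 (SE 0.0861). *Zfp791*, a zinc finger gene of chromosome 8 (85108553 to 85123095), had 0.679, 0.995 and 0.537 CPM in the controls and 4.82, 8.49 and 2.96 CPM in E47LKO, a log2 fold change of 2.87 (SE 0.445). *Plcd3*, a phospholipase C (chromosome 11, 103070304 to 103101658), had 0.283, 0.663 and 0.644 CPM in the controls and 1.95, 3.38 and 1.88 CPM in the mutants, a log2 fold change of 2.16 (SE 0.403). Both were expressed at a few CPM at most, and their mutant levels varied more between mice than that of *Prlr*.

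The other 11 were of mixed function. *Acot1*, a cytosolic acyl-CoA thioesterase (chromosome 12, 84009490 to 84018371), had 21.3, 23.2 and 27.4 CPM in the controls and 37.1, 33.8 and 35.7 CPM in the mutants, a log2 fold change of 0.57 (SE 0.11). *Cyp4a31*, a P450 of the fatty acid hydroxylase family, had 3.79, 4.42 and 6.23 CPM against 10.1, 8.81 and 8.66 CPM. *Cyp2b10*, the P450 known as the main target of the xenobiotic receptor CAR, had 9.28, 2.60 and 3.11 CPM in the controls and 17.9, 10.9 and 30.7 CPM in the mutants, a log2 fold change of 2.0 (SE 0.518). The lowest mutant (E47LKO 2) was close to the highest control (control 1) for that gene. *Gsta2*, a glutathione transferase, was at 0.71 (SE 0.16) on the log2 scale, the exporters *Abcc3* and *Abcc4* at 0.42 and 0.94, and *Vldlr*, the very low density lipoprotein receptor, at 1.52 (SE 0.361). *Gadd45b*, a stress-induced gene, was tight within groups, with 2.49, 2.76 and 2.47 CPM in the controls and 4.58, 4.47 and 4.33 CPM in the mutants. *Nipal1*, a magnesium transporter, differed by 2.05 (SE 0.508) with 1.58 to 8.29 CPM in controls and 12.5 to 29.6 CPM in mutants. The remaining 2 were *Tmcc3* (0.47) and *Cdk5rap1* (0.65).

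The 14 lower genes chosen by the same rule were led by *Serpina3c*, a serine protease inhibitor gene of chromosome 12 (104146382 to 104153870). It had 2.15, 2.71 and 2.42 CPM in controls 1 to 3 and 0.672, 0.575 and 0.456 CPM in E47LKO 1 to 3, a log2 fold change of -2.09 (SE 0.28) and the smallest unadjusted p of all genes in edgeR (6.55e-05). It belongs to a cluster of closely related serpin genes, so its counts may depend on how shared reads were treated. A neighbouring pair on chromosome 1 was lower together. The long noncoding RNA *C730036E19Rik* (151138034 to 151142345) had 13.2, 12.6 and 12.2 CPM in the controls and 6.78, 8.36 and 7.01 CPM in E47LKO. The processed pseudogene *Gm8941* (151136507 to 151137780) had 12.1, 11.1 and 12.9 CPM against 8.79, 7.92 and 6.38 CPM. The log2 fold changes of the pair were -0.78 (SE 0.125) and -0.65 (SE 0.146).

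*Nat8f5*, an acetyltransferase family gene, had 19.8, 14.5 and 18.9 CPM in the controls and 10.9, 10.7 and 9.0 CPM in the mutants, a log2 fold change of -0.80 (SE 0.147). *Aacs*, the acetoacetyl-CoA synthetase that returns ketone bodies to lipid synthesis, had 73.0, 72.6 and 100 CPM against 58.6, 48.7 and 45.3 CPM, a log2 fold change of -0.69 (SE 0.152). *Per2*, a repressor of the circadian clock (chromosome 1, 91415982 to 91459324), had 10.0, 4.92 and 5.21 CPM in the controls and 2.44, 3.58 and 1.99 CPM in the mutants. Its groups did not overlap, but control 1 alone held about as much as controls 2 and 3 together, and the log2 fold change was -1.33 (SE 0.339). *Trhde*, which degrades thyrotropin-releasing hormone, was at -1.35 (SE 0.301), and the receptor genes *Fgfr3* and *Lrig1* at -0.62 and -0.49. The others were *Kifc3* (-0.57), *Fam47e* (-0.62), *Exph5* (-0.69), *Tppp* (-0.84) and *Tank* (-0.36), each with 3 mutants below 3 controls.

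**Figure D2:**
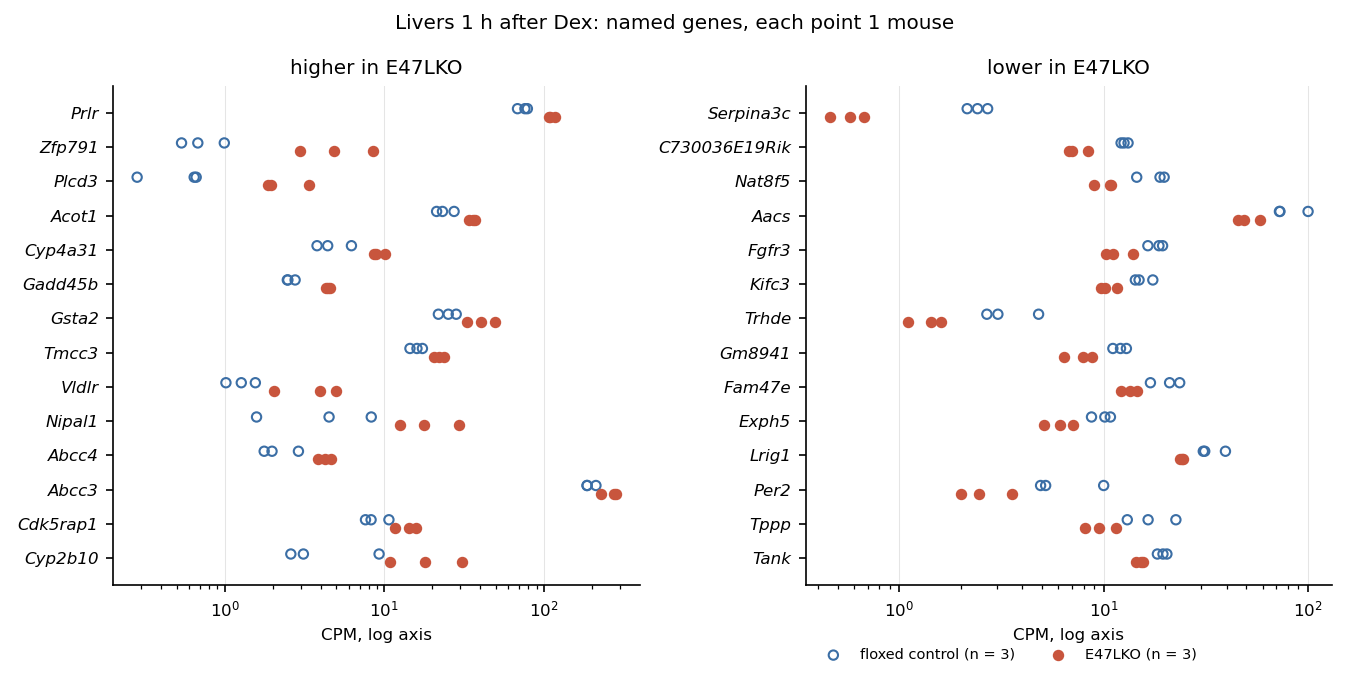
CPM on a log axis in each of the 6 livers (open blue, floxed control; filled red, E47LKO; 1 point per mouse) for the 14 higher and 14 lower genes with the smallest unadjusted p among genes whose groups did not overlap. The lack of overlap was part of how the genes were chosen, as for *Prlr* with 68.3 to 78.8 CPM in controls and 107 to 118 CPM in mutants.

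The promoters of *Prlr*, *Zfp791* and *Serpina3c*, the first genes by p in these lists, are shown because E47 and GR bind DNA directly. Each is the RefSeq window of 250 bases before to 50 after a transcription start in GRCm38.p6, written 5′ to 3′ on the gene's strand, with E-boxes (CANNTG) and the GR motif AGAACA in capitals, on either strand. For *Prlr* (chr15:10223656-10223955, + strand, the window of its 3 with the most CAGCTG and CAGGTG) the E-boxes begin at positions 106, 194 and 225 of the window and the GR motif at 239. For *Zfp791* (chr8:85123046-85123345, - strand) 6 E-boxes begin at 20, 61, 96, 113, 144 and 177 and the GR motif at 250. For *Serpina3c* (chr12:104153823-104154122, - strand) the E-box begins at 25 and the GR motif at 71.
Prlr: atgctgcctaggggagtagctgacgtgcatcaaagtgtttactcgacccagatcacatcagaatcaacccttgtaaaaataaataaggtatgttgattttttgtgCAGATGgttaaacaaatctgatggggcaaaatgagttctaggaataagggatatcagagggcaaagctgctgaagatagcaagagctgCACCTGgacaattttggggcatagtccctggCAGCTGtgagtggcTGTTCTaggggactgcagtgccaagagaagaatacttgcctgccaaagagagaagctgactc
Zfp791: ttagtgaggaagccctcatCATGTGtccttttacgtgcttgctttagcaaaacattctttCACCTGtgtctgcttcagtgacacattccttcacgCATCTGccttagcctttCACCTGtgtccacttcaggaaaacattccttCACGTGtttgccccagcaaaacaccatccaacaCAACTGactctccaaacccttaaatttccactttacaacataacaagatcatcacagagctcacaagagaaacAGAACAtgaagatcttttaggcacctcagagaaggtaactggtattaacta
Serpina3c: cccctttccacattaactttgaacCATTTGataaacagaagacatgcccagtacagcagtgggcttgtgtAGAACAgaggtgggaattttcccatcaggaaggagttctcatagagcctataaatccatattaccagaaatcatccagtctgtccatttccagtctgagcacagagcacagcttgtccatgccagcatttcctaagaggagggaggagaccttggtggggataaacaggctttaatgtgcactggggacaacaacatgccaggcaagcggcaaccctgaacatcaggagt
Read against all 32851 promoter windows of the table, these matches are common. CANNTG lies in 72.3% of windows, its forms CAGCTG and CAGGTG in 16.3% and 20.2%, and AGAACA in 19.0%, each searched on both strands, with CAGCTG and CAGGTG being also matches of CANNTG. Of the 14 higher genes 12 matched the table, with 22 windows. CANNTG was in 18 of those (81.8%), CAGCTG in 5 (22.7%), CAGGTG in 5 (22.7%) and AGAACA in 9 (40.9%), the last from 7 genes. Of the 14 lower genes 11 matched, with 16 windows, and the shares were 68.8%, 12.5%, 12.5% and 18.8%. Windows of 1 gene overlap in part, and *Cyp4a31*, *Abcc3*, *Kifc3*, *Gm8941* and *Per2* had no entry.

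The receptor gene overlapped between genotypes, and most genes of its partners were lower in E47LKO. *Nr3c1* had 68.1, 68.9 and 78.7 CPM in the controls and 56.9, 64.2 and 72.4 CPM in E47LKO, a log2 fold change of -0.16. *Hsd11b1*, which regenerates active glucocorticoid inside cells, had 495 to 587 CPM in controls and 421 to 534 CPM in mutants. Of 24 genes for GR, its chaperones and coregulators, 19 were lower and 5 higher, with a median of -0.16. Past the descriptive threshold were 2, both lower, where 1.12% of all genes passed lower. These were *Onecut1* (HNF6) and *Foxa1*, liver transcription factors that bind near GR. *Onecut1* had 5.43, 10.1 and 23.3 CPM in controls 1 to 3 and 4.15, 2.23 and 4.33 CPM in E47LKO 1 to 3, a log2 fold change of -1.85 (SE 0.513). The groups did not overlap, and control 3 was far above the other controls. *Foxa1* had 4.86, 12.3 and 15.9 CPM against 6.90, 5.17 and 6.04 CPM, a log2 fold change of -0.87, with control 1 below all mutants. *Onecut1* passed the descriptive threshold without control 1, without control 3 and without E47LKO 3, and *Foxa1* only without control 1. In that setting *Foxo3*, *Cebpa* and *Ncoa3* passed lower as well, 5 of the list in all, where 1.38% of all genes passed lower.

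Of 21 classical GR targets 15 were higher and 6 lower in E47LKO, with a median of 0.13, and 1 passed the descriptive threshold. It was *Fkbp5*, the GR cochaperone that GR itself induces, with 105, 157 and 143 CPM in the controls and 163, 184 and 181 CPM in the mutants, a log2 fold change of 0.38 (SE 0.145). *Sgk1*, a kinase induced within minutes of hormone, had 96.1, 121 and 84.1 CPM against 122, 125 and 138 CPM, a log2 fold change of 0.35 (SE 0.134). For both genes all mutants lay above all controls, though control 2 was close to the lowest mutant. *Cebpd*, a C/EBP transcription factor, was the 1 target with all mutants below all controls, at 4.07, 4.14 and 4.78 CPM in the controls and 3.36, 3.64 and 3.36 CPM in the mutants (-0.33). *Tsc22d3* (GILZ) at 0.13, *Per1* at -0.08, *Ddit4* at 0.05 and *Igfbp1* at -0.11 overlapped between the groups. *Tat*, the tyrosine aminotransferase used as the textbook GR target in liver, had 4674, 3601 and 3879 CPM in the controls and 4477, 5097 and 4938 CPM in the mutants, a log2 fold change of 0.26 (SE 0.135). *Fkbp5* passed the descriptive threshold also without control 3, and the list had 0 genes past it without control 1 and 0 without E47LKO 3.

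That these targets responded was measured only against untreated wild-type livers of another experiment, in 1 edgeR fit of the unstranded counts over 30 livers in 8 groups. The floxed controls after Dex differed from the 5 untreated wild types in 3309 of 16227 genes (20.4%), 1629 of them higher (10.0%) and 1680 lower (10.4%), and 5446 had an unadjusted p under 0.05 (33.6%). By this test 11 of 21 classical GR targets were higher and 1 lower, with a median of 1.39 against -0.04 over all genes. *Cdkn1a*, the cell cycle inhibitor p21, had 0.654 to 1.64 CPM untreated, 155 to 206 CPM in the controls after Dex and 181 to 252 CPM in E47LKO. *Ddit4*, an inhibitor of mTOR signalling, had 3.36 to 19.0 CPM, 118 to 177 CPM and 134 to 210 CPM in the same order. *Sgk1* had 9.37 to 16.05 CPM, 90.7 to 130 CPM and 131 to 148 CPM. These levels lay far above the untreated range in both genotypes, whereas *Per1* was lower after Dex (log2 difference -1.46, edgeR adjusted p 0.0366).

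The same contrast held large differences in clock genes. Of 20 clock genes 5 were higher and 13 lower in the controls after Dex than in untreated livers, with a median of -1.56. *Npas2*, a clock activator, had 0.0341 to 0.110 CPM untreated and 8.22 to 12.6 CPM in the controls after Dex. *Arntl* (BMAL1) had 0.654 to 4.80 CPM and 28.5 to 29.6 CPM. *Per3*, a repressor, had 39.7 to 76.7 CPM and 1.45 to 1.67 CPM. *Arntl* and *Per3* peak at opposite times of day in mouse liver. Treatment, experiment, handling and time of day cannot be told apart in this contrast. Between genotypes within the Dex experiment, 8 of 18 tested clock genes were higher and 10 lower, with a median of -0.03, and *Per2* alone passed the descriptive threshold.

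**Figure D3:**
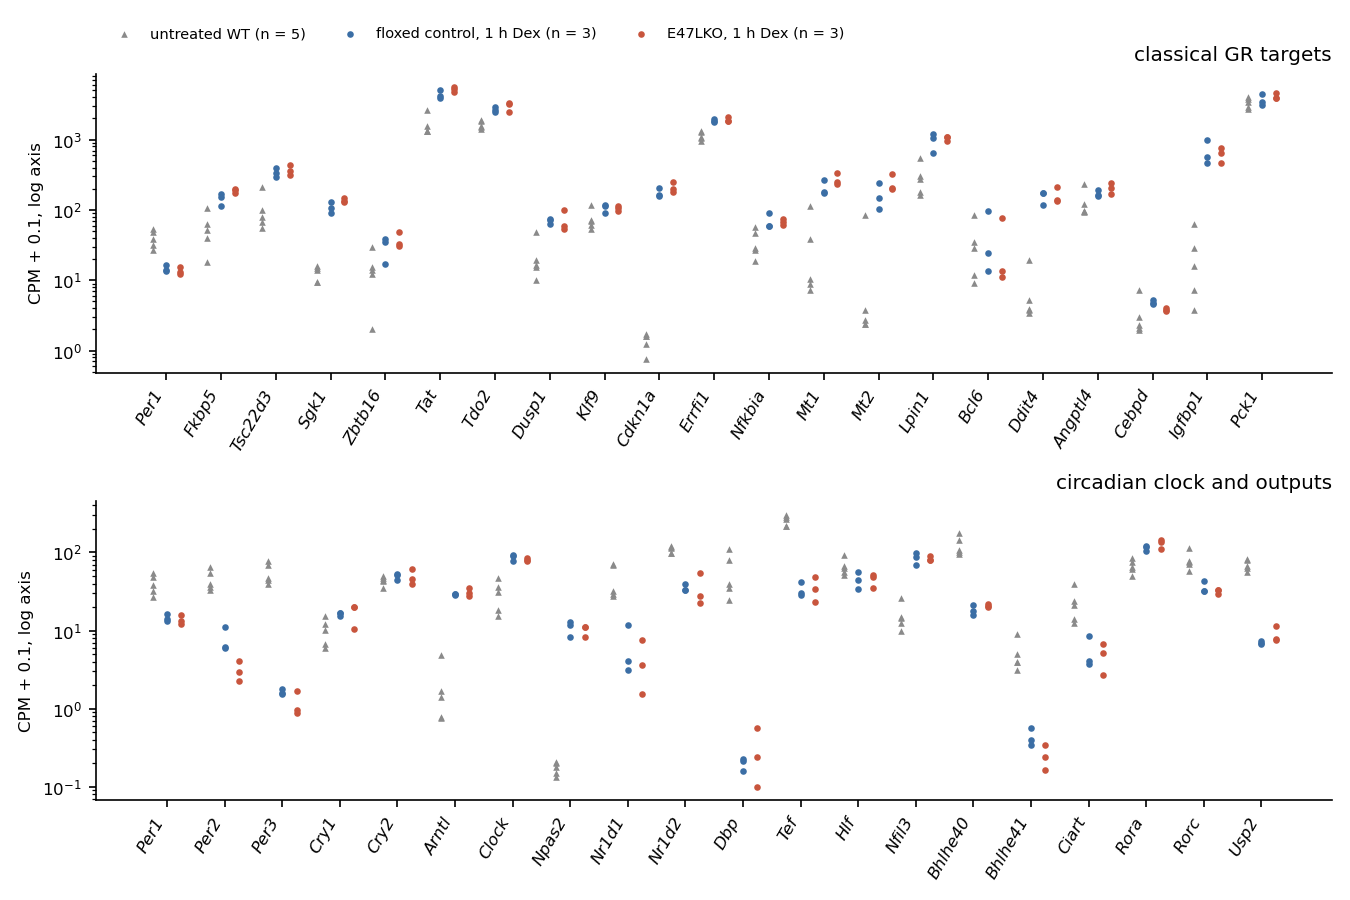
CPM plus 0.1 on a log axis for the 21 classical GR targets (top) and 20 circadian genes (bottom) in untreated wild-type livers (grey triangles, 5 mice), floxed controls (blue, 3) and E47LKO (red, 3) 1 h after Dex, 1 point per mouse, from the unstranded counts of the fit over 30 livers. *Cdkn1a* lies at or below 1.64 CPM untreated and at or above 155 CPM in both genotypes after Dex, and *Per3* at or above 39.7 and at or below 1.67 CPM.

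The 11 glucose and lipid genes that the study names (a list it chose on these data among others) were 3 higher and 8 lower in E47LKO, with 0 past the descriptive threshold and a median of -0.04. Without control 3 the list was 6 higher and 5 lower, and *Apoa4* passed the threshold lower there and without E47LKO 3. *Pck1*, the rate-limiting enzyme of gluconeogenesis, had 4117, 3180 and 2900 CPM in the controls and 3633, 4248 and 3637 CPM in the mutants. *G6pc*, which releases glucose from the hepatocyte, had 318, 212 and 281 CPM against 174, 292 and 222 CPM. Both overlapped between the groups, with log2 fold changes of 0.18 (SE 0.155) and -0.24 (SE 0.206). *Acacb*, *Dhcr7*, *Hmgcs1* and *Gpam* lay between -0.14 and 0.04, and *Apoa4* was at -0.43 (SE 0.246). An interval of 2 SE around *Pck1* runs from -0.14 to 0.49, so changes of 2-fold in either direction lie outside it.

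In the wider lists of glucose and lipid synthesis single genes stood out. Over all genes, 1.11% passed the descriptive threshold higher and 1.12% lower. The shares were 0.837% and 1.38% without control 1, 2.58% and 1.69% without control 3, and 0.730% and 1.11% without E47LKO 3. Of 20 genes of glucose production and sensing, 8 were higher and 12 lower, and *Irs2*, the insulin receptor substrate of liver, passed the descriptive threshold with 6.05, 11.9 and 14.8 CPM in the controls and 5.50, 6.39 and 7.52 CPM in the mutants. *Irs2* did not pass without control 3, where *Pdk4* passed higher, and *Pklr* passed lower beside it without control 1. Of 21 genes of fatty acid and triglyceride synthesis, 10 were higher and 11 lower, with 1 past the threshold higher and 2 lower. *Thrsp* (Spot 14), which promotes lipogenesis, had 453, 613 and 813 CPM against 456, 222 and 239 CPM, a log2 fold change of -1.03 (SE 0.305). *Srebf1*, the lipogenic master regulator, had 162, 117 and 113 CPM against 110.6, 90.5 and 94.5 CPM. *Elovl5*, a fatty acid elongase, was the higher one, with 354, 541 and 579 CPM against 582, 661 and 749 CPM. *Thrsp* passed the threshold in each of the repeats without 1 library, and *Srebf1* and *Elovl5* only without control 3, where *Me1* and *Fasn* passed too. Of 25 genes of cholesterol synthesis, 9 were higher and 16 lower with a median of -0.04, and *Fdps* (-0.56) passed the threshold, and of the repeats it passed only in that without control 1. Without control 3 and without E47LKO 3 the cholesterol list was 14 and 15 higher, with medians of 0.01 and 0.04.

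**Figure D4:**
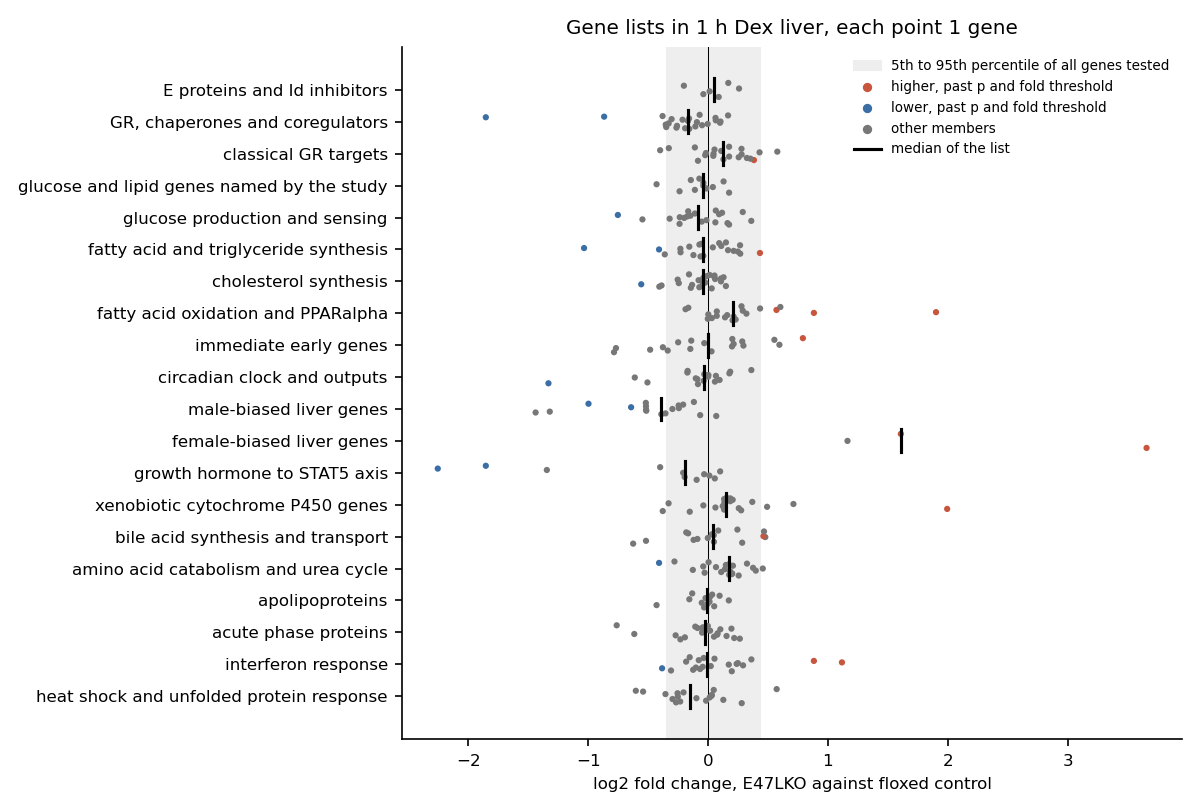
Log2 fold change of E47LKO against floxed control for every tested member of 20 gene lists, 1 point per gene, with the list median as a vertical bar and the range from the 5th to the 95th percentile of all genes in grey (-0.35 to 0.43). Red and blue mark members past the unadjusted p and the fold of 1.3, and male-biased genes (median -0.39) lie to the left and genes of fatty acid oxidation (0.21) to the right of 0.

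Genes of fatty acid oxidation, many of them targets of the fasting-activated receptor PPARα, were higher more often than lower. Of 20 members 17 were higher and 3 lower, with a median of 0.21. Past the descriptive threshold were 3, all higher, where 1.11% of all genes passed higher. All mutants lay above all controls in 6 members, and in 4.32% of all genes. *Cyp4a14*, a fatty acid omega-hydroxylase and a strongly responding PPARα target of rodent liver, had 52.8, 110.7 and 321 CPM in controls 1 to 3 and 800, 411 and 599 CPM in E47LKO 1 to 3, a log2 fold change of 1.90 (SE 0.58). *Cyp4a10* had 118, 150 and 293 CPM against 419, 400 and 214.7 CPM, a log2 fold change of 0.88, and E47LKO 3 lay below control 3. *Acot1*, described above, was the third. The mitochondrial enzymes differed by small amounts. *Acadl*, a long-chain acyl-CoA dehydrogenase, had 173, 178 and 185 CPM against 218, 206 and 198 CPM (log2 fold change 0.21), and *Cpt1a*, the entry step of mitochondrial oxidation, had 292, 302 and 313 CPM against 323, 359 and 381.8 CPM (0.23). *Ppara* itself was at 0.20 (SE 0.171). The list counted 3 higher genes past the threshold without control 1 (where 0.837% of all genes passed higher), 7 without control 3 (2.58%) and 3 without E47LKO 3 (0.730%), and 0 lower in each. *Acot1* and *Cyp4a14* were among them in each case.

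Xenobiotic P450 genes and their receptors were 17 higher and 4 lower of 21, with a median of 0.15, and *Cyp2b10* was the 1 gene past the threshold. It passed in each repeat. The list had 3 genes past the threshold higher without control 1 (where 0.837% of all genes passed higher), 2 without control 3 (2.58%) and 4 without E47LKO 3 (0.730%). *Cyp3a11*, the most abundant CYP3A of mouse liver and a target of PXR, had 5790, 4963 and 2968 CPM in the controls and 7401, 4732 and 5593 CPM in the mutants, so the groups overlapped. *Nr1i3* (CAR) had 82.2, 71.3 and 74.6 CPM against 104, 108 and 48.1 CPM, with E47LKO 3 below all controls.

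Genes with sex-biased expression in liver, which are set by the pattern of growth hormone pulses, varied between mice of the same genotype. Of 17 male-biased genes 16 were lower in E47LKO and 1 higher, with a median of -0.39. Past the descriptive threshold were 2, both lower, where 1.12% of all genes passed lower. All mutants lay below all controls in 3 members, and in 4.13% of all genes. *Selenbp2*, a selenium-binding protein, had 1816, 1882 and 1505 CPM in the controls and 458, 1265 and 884 CPM in E47LKO, a log2 fold change of -1.0 (SE 0.314). *Hsd3b5*, a male-specific steroid dehydrogenase, had 300, 290 and 309 CPM against 189, 271 and 117 CPM, a log2 fold change of -0.64 (SE 0.253). *Elovl3* was the third without overlap, at -0.30 (SE 0.102). *Mup7*, a major urinary protein gene, had 3360, 1687 and 1644 CPM against 457, 1874 and 139 CPM, so that E47LKO 2 lay among the controls and the fold was -1.44 with an SE of 0.785. The major urinary protein genes are near-identical copies and reads may be split among them. *Cyp4a12a*, a male-specific omega-hydroxylase, was the higher gene, at 0.07.

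Without E47LKO 3 all 17 male-biased genes were lower, 4 past the threshold, with a median of -0.38, where 1.11% of all genes passed lower. Without control 1 the number past the threshold was 2 (1.38% of all genes) and without control 3 it was 1 (1.69%). *Selenbp2* passed in each repeat, and *Hsd3b5* only without E47LKO 3. Of 15 female-biased genes only 3 passed the filter on low counts, all higher in E47LKO. *Cyp2a4* had 0.735, 0.221 and 0.322 CPM in the controls and 3.18, 0.702 and 12.3 CPM in the mutants. *Abcd2*, a peroxisomal fatty acid transporter, had 3.79, 6.69 and 8.21 CPM against 17.1, 5.87 and 34.0 CPM. For both genes E47LKO 1 and 3 were high and E47LKO 2 lay with the controls, and since the filter keeps genes that are high in 1 group, these 3 are not a sample of the list. Among those below the filter, *Cyp2b9* had 1, 0 and 0 counts in the controls and 14, 6 and 3 counts in E47LKO and *Cyp2b13* had at most 1 count in a library.

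In the growth hormone pathway the receptor and signalling genes overlapped between groups, with *Ghr* at -0.09, *Stat5b* at 0.01 and *Igf1* at -0.03. Genes that are transcribed after each hormone pulse scattered widely. *Cish*, an inhibitor of the pathway, had 1.19, 35.0 and 34.5 CPM in controls 1 to 3 and 7.39, 1.66 and 5.70 CPM in E47LKO 1 to 3. *Socs2*, another inhibitor, had 4.92, 12.7 and 52.1 CPM against 6.96, 5.43 and 14.9 CPM. *Bcl6*, a repressor of female-biased liver genes, had 91.6, 12.5 and 22.9 CPM against 10.3, 73.6 and 12.7 CPM. Control 1 and E47LKO 2 thus had the lowest *Cish* and the highest *Bcl6*, and controls 2 and 3 the highest *Cish*. *Cish* passed the descriptive threshold over all 6 libraries (log2 fold change -2.25, SE 0.944) and without control 1, but not without control 3 or E47LKO 3.

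**Figure D5:**
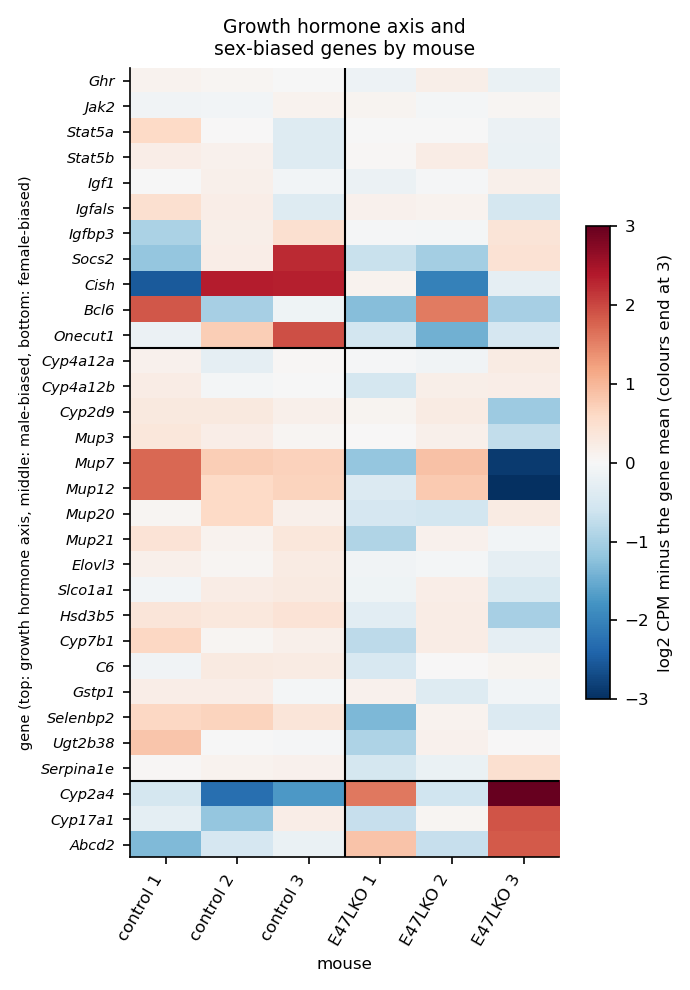
Log2 CPM minus the gene's mean over the 6 livers (colour, red above and blue below the mean, colours end at 3) for 11 genes of the growth hormone pathway, 17 male-biased and 3 female-biased genes (rows), with 1 column per mouse. *Cish*, *Socs2* and *Bcl6* vary within both genotypes, and E47LKO 3 has the lowest *Mup7* (139 CPM) and the highest *Cyp2a4* (12.3 CPM).

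The remaining pathways showed few members past the descriptive threshold over all 6 libraries. The shares of all genes past it were 1.11% higher and 1.12% lower. They were 0.837% and 1.38% without control 1, 2.58% and 1.69% without control 3, and 0.730% and 1.11% without E47LKO 3. Of 18 immediate early genes 9 were higher and 9 lower, and *Gadd45b* was the 1 past it and passed in each repeat, joined by *Myc* (lower) without control 1 and by *Fos* and *Junb* (lower) without control 3. Of 21 genes of amino acid catabolism and the urea cycle 16 were higher and 5 lower with a median of 0.17, but 0 passed higher and *Prodh* (proline dehydrogenase) passed lower at -0.41 but in none of the 3 repeats. Without E47LKO 3 that list was 12 higher and 9 lower with a median of 0.00. Bile acid genes were 9 higher and 7 lower of 16, with *Abcg8*, a sterol exporter, past the threshold at 0.46. It passed without control 1 as well, together with *Nr0b2* and *Abcg5*, and not without control 3 or E47LKO 3. *Cyp7a1*, the rate-limiting enzyme of bile acid synthesis, had 24.5, 22.6 and 183 CPM in the controls and 32.9, 54.6 and 62.1 CPM in the mutants, so that control 3 was above all others. Without control 3 all mutants exceeded both controls and *Cyp7a1* passed the threshold higher. Apolipoproteins (13 tested) and acute phase proteins (22) had 0 members past it, with medians of 0.00 and -0.03. In the repeats *Apoa4* passed lower without control 3 and without E47LKO 3, and *Steap4* without control 1 and without E47LKO 3. Interferon response genes were 10 higher and 10 lower, with *Gbp2* (0.88) and *Cxcl10* (1.12) past the threshold higher and *Irf7* (-0.38) lower. None of these passed without control 1 or without E47LKO 3, and *Gbp2* and *Irf7* passed without control 3. Of 18 heat shock and unfolded protein response genes 11 were lower with a median of -0.15, and *Xbp1*, a transcription factor of the unfolded protein response, had 257, 214 and 214 CPM against 184, 187 and 165 CPM with no overlap. The direction of that list changed without control 1, to 12 higher and 6 lower with a median of 0.05, and without control 3 *Xbp1*, *Sdf2l1*, *Creld2* and *Pdia4* passed lower.

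Markers of other cell types moved with the mice, and since these are whole livers, fewer cells of a type and less RNA per cell cannot be told apart. Of 16 B cell markers only 4 passed the filter, all higher in E47LKO with a median of 0.73, and 1 passed the descriptive threshold. The filter keeps genes that are high in 1 group, so these 4 are not a sample of the list. *Igkc*, the immunoglobulin kappa constant region, had 4.02, 6.74 and 5.47 CPM in the controls and 11.4, 7.53 and 15.9 CPM in E47LKO. The defining B cell genes were near 0 in both genotypes, with 1 to 6 counts of *Cd79a* in a control library and 3 to 9 in a mutant library. The summed level of the list was 39.8 to 76.1 CPM in controls and 47.1 to 105 CPM in mutants, so the groups overlapped. The T and NK list had 3 of 14 genes tested, with *Il2rb* past the threshold higher and *Cd4* at -0.60. As with the B cell markers, these 3 are not a sample of the list. *Il2rb* had 0.339 to 0.537 CPM in controls and 0.639 to 1.40 CPM in mutants. Endothelial markers were 10 of 10 higher with a median of 0.26 and 0 past the threshold, and 5 passed it without control 3, where 2.58% of all genes passed higher. Without control 1 the endothelial list was 8 higher and 2 lower, with 0 past it. Erythroid genes (5 of 8 tested) were all lower with a median of -0.47, with *Hbb-bt* past the threshold. These 5 are likewise not a sample of the list. Without control 1 none passed and the median was -0.22. In the repeat without control 3, 3 passed lower (median -0.76), where 1.69% of all genes passed lower. In that without E47LKO 3, 2 passed lower, where 1.11% of all genes did.

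Macrophage and Kupffer cell markers had 0 of 12 past the threshold and summed levels of 147 to 348 CPM in controls and 112 to 370 CPM in mutants. Without control 3 all 12 were higher, with a median of 0.27. Stellate cell and fibroblast markers had 0 of 11, with control 1 at 225 CPM, controls 2 and 3 at 388 and 492 CPM and the mutants at 350 to 390 CPM. Their median was -0.10 without control 1 and 0.34 without control 3. Of 10 dividing cell genes 6 passed the filter, all higher, with a median of 0.92 and 0 past the threshold. As with the female-biased genes, these 6 are not a sample of the list. Without E47LKO 3 their median was -0.16. The 10 genes summed to 4.67 to 10.4 CPM in controls and 10.5, 5.32 and 34.0 CPM in E47LKO 1 to 3. Neutrophil (3 tested) and cholangiocyte markers (7) had 0 past it, as had the adipocyte markers (3), which sum to 24.95 to 60.8 CPM in controls and 44.7, 62.1 and 111.1 CPM in E47LKO 1 to 3. The adipocyte genes *Fabp4* and *Lpl* passed higher without control 3, where 2.58% of all genes passed higher. Only 3 of 8 adipocyte markers passed the filter on low counts, so they are not a sample of the list. Of 10 acinar pancreas genes 7 were at 0 in all libraries. The part of these cells in the differences above was not tested.

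The effect of hepatocyte E47 loss at 1 h was set against that of whole-body E47 loss (E47KO) in livers of the other experiments, by the difference of the effects in the fit over 30 livers. Against untreated livers (6 E47KO and 5 wild type) the effects differed in 6 of 16227 genes (0.0370%), with 320 at an unadjusted p under 0.05 (1.97%). The pseudogene *Gm9855* (chromosome 10, 42054113 to 42055306) was 2.77 to 4.53 CPM in untreated E47KO and 0 to 0.0276 CPM in wild type, whereas after 1 h of Dex it was 0.0618 to 3.22 CPM in the controls and 1.53 to 3.67 CPM in E47LKO. The floxed control 1 (E47fl/+) had the 0.0618 CPM, and controls 2 and 3 (E47fl/fl) lay within or near the E47LKO range. The others were B cell genes, 4 of which are given here. *Ms4a1* (CD20), *Ighd*, *Pax5* and *Cd79a* were at 0 to 0.0674 CPM in untreated E47KO livers and at 0.0828 to 1.15 CPM in untreated wild types. In the 1 h experiment they were at 0.0578 to 0.417 CPM in controls and at 0.0695 to 0.625 CPM in E47LKO, a few counts per library in both genotypes.

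Against 3 weeks of Dex in the drinking water (3 E47KO and 2 wild type) the effects differed in 0 genes (0%) after adjustment in edgeR, with 439 (2.71%) at an unadjusted p under 0.05. DESeq2 called 1 gene, *Gramd1b*, a sterol transporter that reached 10.9 to 44.6 CPM in wild types and 4.82 to 6.35 CPM in E47KO after 3 weeks, but 1.54 to 1.85 CPM in controls and 1.89 to 2.43 CPM in E47LKO at 1 h. Against 3 weeks of corticosterone (Cort, 4 and 4) they differed in 2 genes (0.0123%), with 782 (4.82%) unadjusted. These were *Gm9855* and the male-biased *Hsd3b5*. After Cort *Hsd3b5* was 0.266 to 2.25 CPM in wild type and 15.7 to 71.8 CPM in E47KO, higher in the mutant, whereas after 1 h of Dex it was 313 to 333 CPM in controls and 125 to 295 CPM in E47LKO. Allele, treatment and experiment differ together here and cannot be told apart.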

How the data were processed

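RNA of the 6 livers was made into stranded poly(A) libraries. The authors aligned the reads to mm10 with STAR 2.4.2a and deposited raw counts per Ensembl gene without normalization, in 3 strand columns. The strand column with more assigned reads was used, giving 15.8 to 18.4 mega-counts per library. It held 97.4 to 97.7% of the counts that both strand-specific columns held together. Entries naming no gene (22.8 to 29.4%) were left out. The replicates are separate mice.

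Counts were filtered (filterByExpr, minimum count 10), TMM-scaled and tested with the quasi-likelihood test of edgeR 4.0.16 (R 4.3.3, limma 3.58.1), two-sided, with Benjamini-Hochberg adjustment and a threshold of 0.05. The descriptive threshold was an unadjusted p under 0.05 and a fold of at least 1.3, a cutoff of the kind the study plotted. SE is the log2 fold change divided by the root of F. Symbols came from GENCODE M21 for 45143 of 45706 genes, and promoters from RefSeq. The comparisons with untreated livers and with the E47KO experiments came from 1 fit to the unstranded counts of 30 livers, since strand was not kept in all files. The scripts were tested on simulated data.

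Genes were named by this rule: *Tcf3*, 11 metabolic genes that the study lists, up to 14 genes per direction by p (mean CPM at least 1, groups not overlapping), up to 5 members by p and 3 by level of each list, genes whose effect differed between experiments, and genes that set a library apart (mean CPM at least 5). The members, lists and tests were chosen with earlier results of these data known. Tables of the authors' own comparisons (DESeq2 fold changes and p-values) and libraries of muscle and fat were not used, and some genes are not reported here. Alternatives were DESeq2 1.42.0, another scaling, no filter, the replicate number as a block, and leaving out each library. List counts without control 1, control 3 and E47LKO 3 were added after seeing the data.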

Additional observations from a re-analysis of the deposited data

Results flagged for a closer look

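The genotype effect at 1 h of Dex differed from that in another experiment in the genes below, by edgeR's test of the difference of the effects with adjustment over 16227 genes. Differences are log2, the effect of E47LKO against floxed control minus that of E47KO against wild type.

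Against untreated livers *Gm9855* differed by -7.20 (SE 0.933, adjusted p 0.000536) and against 3 weeks of Cort by -7.86 (SE 1.01, adjusted p 0.000457). The pseudogene was 3.03 to 4.19 CPM in E47KO and at most 0.0598 CPM in wild type after 3 weeks of Dex as well, and in the 1 h experiment control 1 (E47fl/+), at 0.0618 CPM, was the 1 library near the wild-type level.

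The B cell genes *Ms4a1* (6.03), *Ighd* (8.10), *Pax5* (6.71) and *Cd79a* (5.51) differed from untreated livers with adjusted p between 0.0269 and 0.039, and so did a further gene (7.41). *Ighd* and *Pax5* were at 0 in all untreated E47KO livers, so these values depend on the prior count and are no bound. The 1 h libraries held 1 to 9 counts of *Ms4a1*, *Ighd*, *Pax5* or *Cd79a* each. In the 22 alternatives *Gm9855* kept its call in 22, the further gene in 22, *Ms4a1* in 10, *Ighd* in 8 and *Cd79a* in 7, and *Pax5* in 7 of 20.

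*Hsd3b5* differed from 3 weeks of Cort by -5.51 (SE 0.819, adjusted p 0.00297), with an effect of -0.65 at 1 h and 4.87 after Cort. *Hsd3b5* and *Gm9855* each kept their call against Cort in 17 of 18 alternatives, of which 14 left out 1 library. Both lost it in the fit to only the 4 groups of the contrast.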

How the results depend on the processing

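Of 70 genes followed, 65 kept their direction in all 11 alternatives, the 28 top genes among them. The top genes were chosen for groups that did not overlap, so leaving out 1 library could hardly reverse them. The 5 that did not keep it were glucose and lipid genes of the study near 0. Leaving out 1 library, *Igfbp1* ranged from -0.33 to 0.27 (0.27 without control 3, 0.06 without E47LKO 1) and *Gpam* from -0.087 to 0.18 (-0.087 without control 2, -0.04 without E47LKO 2, -0.0082 without E47LKO 3). *Acacb* ranged from -0.24 to 0.24 (0.24 without control 3, 0.05 without E47LKO 1 and without E47LKO 3), *Dhcr7* from -0.21 to 0.16 (0.04 without control 2, 0.16 without E47LKO 1) and *Hmgcs1* from -0.58 to 0.11 (0.11 without E47LKO 1).

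The count past the adjusted threshold was 0 in the comparison as reported, 1 without a filter on low counts (*Zfp791*, edgeR adjusted p 0.018), 3 in DESeq2 (*Zfp791*, *Prlr* and *Serpina3c*, adjusted p 7.48e-06, 0.00252 and 0.0136), and 0 to 1 leaving out 1 library (1 without control 3, *Gjb1*). The share of tested genes past the descriptive threshold was 2.73% without the filter (586 genes, 1.40% higher and 1.33% lower), 1.37% in DESeq2 (294 of the 21471 genes it was run on), and 1.84 to 4.27% leaving out 1 library, with 0.730 to 2.58% higher and 1.05 to 1.69% lower. It was 4.27% without control 3, 3.50% without E47LKO 2 (1.92% higher) and 1.84% without E47LKO 3.

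The difference from untreated livers had 6 genes, 3 with the 4 groups of the contrast alone, 3 with the strand column, and 2 to 6 leaving out 1 library. The difference from 3 weeks of Dex had 0 genes, 1 with another scaling, 1 without the filter, 1 in DESeq2 (*Gramd1b* each), and 0 to 9 leaving out 1 library (9 without wild type 1 of the 3 weeks). The difference from Cort had 2 genes, 13 in DESeq2, 0 with the 4 groups alone and 2 to 4 leaving out 1 library. The controls after Dex against untreated livers gave 3309 genes and 1959 to 3438 leaving out 1 library (1959 without control 3, 2012 without control 2). The cause was not tested.

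With the replicate number as a block, 0 genes passed after adjustment and 358 (183 higher, 175 lower) the descriptive threshold. The labels give no litter or day for the numbers. Deviations of same-numbered mice correlated by 0.115, 0.038 and 0.219, and those of differently numbered mice by -0.241 to 0.146. So few correlations cannot decide whether same-numbered mice were paired, and the main test used genotype alone.

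Limits: with 3 mice a group and a biological coefficient of variation of 0.154, genes of low count have wide errors. Control 1 carries 1 floxed allele, whole-gene counts cannot check the deletion, and there is no Cre control. The 1 h comparison with untreated livers crosses experiments.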

Other observations

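*Gjb1* (connexin 32, the gap junction protein of hepatocytes, chromosome X, 101376378 to 101385629) was chosen after its values were seen. It had 620, 566 and 121 CPM in controls 1 to 3 and 137, 153 and 132 CPM in E47LKO 1 to 3, a log2 fold change of -1.63 (SE 0.496). Controls 1 and 2 were high and control 3 lay below all mutants. Without control 3 it was -2.07 (SE 0.109) with an edgeR adjusted p of 0.00179. In the fit over 30 livers it was 475 to 681 CPM in untreated wild type and 444 to 655 CPM in untreated E47KO, so 4 of the 6 livers of the 1 h experiment lay below that range.

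*Gm15920*, a gene of chromosome 5 (130188395 to 130188796), had 0.905 CPM in control 1, the E47fl/+ liver, and 13.4 to 17.3 CPM in the other 5 livers. *Gm9855* had 0.0566 CPM in control 1 and 1.40 to 3.42 CPM in the others. For both genes the 1 low liver was the 1 labelled E47fl/+, and with 1 such liver a link to that genotype was not tested. *Gm9855* was also present in untreated E47KO livers and almost absent from untreated wild types, as given above.

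E47LKO 3 stood apart from every other liver in further genes. The major urinary protein gene *Mup15* had 9.97 CPM there and 125 to 488 CPM in the other 5 livers. *Tff3*, a trefoil peptide of mucous epithelia, had 114 CPM there and 1.34 to 9.18 CPM in the others. Control 1 had 3.56 CPM of *Thbs1* (thrombospondin), 2.55 CPM of *Acta2* (smooth muscle actin) and 6.22 CPM of *Col1a1* (collagen), against 18.1 to 26.6, 9.77 to 13.8 and 19.9 to 28.3 CPM in the other livers.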
